A study of Mus musculus with 2 samples.

Results

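The genes described here are 10 transcription factor genes of the immediate early response and their relatives: Jun, Junb, Jund, Fos, Fosb, Fosl2, Klf2, Klf6, Bhlhe40 and Egr1. They are 10 of the 26893 genes with a name in both single-cell libraries of the series, matched by gene symbol. The group was chosen by its siRNA ratios, because earlier results of these same libraries showed Jund, Klf2 and Bhlhe40 with large ratios of Chd4 siRNA over control siRNA in germ cells. Those ratios chose the genes, so they are a description here and support nothing. The study's title asks about CHD4, a chromatin remodeller whose ATPase drives the NuRD complex, in keeping up the pool of spermatogonial stem cells.

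Both libraries came from cultured undifferentiated spermatogonia of C57BL/6 mice, taken from adult testes by magnetic sorting for THY1. The cells had been kept on SNL76/7 fibroblasts, which mitomycin stops from dividing, in serum-free medium with GDNF and bFGF. They were lifted off the feeder layer and transfected on plastic for 24 hours with 75 pmol of siRNA and 2 µL of Lipofectamine. One library received a non-targeting control siRNA and the other an siRNA against Chd4. Each library combined equal numbers of cells from 3 biological replicates before 10x Genomics v2 capture, and no label tells the replicates apart. Each condition is thus 1 library, no p-value can be given, and every interval below covers counting error only.

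The JUN proteins pair with each other or with FOS proteins through leucine zippers to form AP-1, which binds TGANTCA sites. Most of these genes are immediate early genes: their transcription starts within minutes of a growth factor, stress or detachment signal without new protein synthesis, and their short-lived mRNAs then decay. JUND is the member of the JUN family that is usually made more steadily. KLF2 and KLF6 are zinc finger factors that bind GC-rich and CACCC sequences, BHLHE40 is a basic helix-loop-helix repressor that binds E-boxes and acts on the circadian clock, and EGR1 is a zinc finger factor downstream of the MAP kinase ERK. GDNF and bFGF, both present in this medium, are known to signal through the same kinases.

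The 3 promoters shown here are those with a match to a MEF2 site, a JUN-type site or an E-box among the members looked up. The capitals mark matches to the MEF2 site (CTA, 4 bases of any kind, TAG), to the JUN-type site TGACNTCA and to the E-box CACGTG. Sequences are from RefSeq on GRCm38.p6, run 5′ to 3′ on the gene's strand and end at the start of the gene, or at the GENCODE start where that lies before it. They were found for 8 of the 10 genes.
Jun, chr4:95052223-95052472, minus strand: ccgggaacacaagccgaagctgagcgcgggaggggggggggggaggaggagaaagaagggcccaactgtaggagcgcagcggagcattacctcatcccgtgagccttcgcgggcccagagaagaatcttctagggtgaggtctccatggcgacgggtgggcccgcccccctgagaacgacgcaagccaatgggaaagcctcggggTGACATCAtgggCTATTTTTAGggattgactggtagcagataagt
Klf2, chr8:72318812-72319032, plus strand: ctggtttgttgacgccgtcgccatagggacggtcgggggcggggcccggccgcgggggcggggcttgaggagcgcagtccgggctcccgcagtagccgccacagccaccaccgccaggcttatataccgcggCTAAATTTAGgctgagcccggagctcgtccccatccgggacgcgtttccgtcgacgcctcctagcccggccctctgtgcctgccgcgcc
Klf6, chr13:5861239-5861481, plus strand: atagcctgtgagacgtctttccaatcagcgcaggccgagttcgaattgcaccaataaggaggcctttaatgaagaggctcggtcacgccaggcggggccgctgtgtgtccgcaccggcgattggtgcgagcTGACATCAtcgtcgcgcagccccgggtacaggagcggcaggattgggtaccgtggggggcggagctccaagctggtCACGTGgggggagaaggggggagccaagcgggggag
The Jun window holds TGACATCA 45 bases and CTATTTTTAG 33 bases before the start. Klf2 has CTAAATTTAG 118 bases before its RefSeq start (72319062), and no JUN-type site. Klf6 carries TGACATCA, the same 8 letters as in Jun, 119 bases before its RefSeq start (5861489) and CACGTG 43 bases before it. The printed Klf2 and Klf6 sequences end short of those starts, at the GENCODE starts 72319033 and 5861482, so distances to their printed ends are shorter. Searched on both strands, the MEF2 site was found in 3.22% of the 32536 promoter windows of this length in the table, TGACNTCA in 7.43% and CACGTG in 6.04%. TGANTCA (6.73% of windows) and TGACGTCA (1.56%) matched none of the 8 promoters, although TGACGTCA is one of the sequences that TGACNTCA covers. The Jund window, which ends 1210 bases before the GENCODE start of the gene, had no match to any of these 5 motifs or to the GC box GGGCGG (33.0% of windows). The Junb window had no match to any of them either. These matches are letters in a window and say nothing of what binds there.

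On the mm10 build, Jun lies on chromosome 4 (95049034 to 95052222), Fosl2 on chromosome 5 (32135801 to 32157842), Bhlhe40 on chromosome 6 (108660629 to 108666925) and Fosb on chromosome 7 (19302696 to 19310051). Chromosome 8 carries 3 members, namely Jund (70698949 to 70700616), Klf2 (72319033 to 72321656) and Junb (84974484 to 84978718). Fos lies on chromosome 12 (85473890 to 85477273), Klf6 on chromosome 13 (5861482 to 5870394) and Egr1 on chromosome 18 (34859823 to 34864984). The coding transcripts of Jun, Junb and Jund used here have 1 exon each. Jund is 1668 bases long with a GC content of 67.1%, higher than in 99.8% of the coding genes measured in germ cells. Junb (62.6% GC) and Klf2 (61.6%) are also GC-rich, whereas Klf6 is at 42.4%. Junb overlaps Prdx2 on the other strand, and Jun, Jund and Bhlhe40 overlap antisense genes. Whether counting used strand was not given in the sources used here, so it cannot be said whether reads of such partners entered the members' counts. Prdx2, a peroxiredoxin gene, had 135 CPM in the control germ cells and 147 CPM after Chd4 siRNA. The antisense gene Junos, over Jun, had 84 and 57 UMIs there, and 0610040F04Rik, over Bhlhe40, had 7 and 14. Gm11175, the antisense gene over Jund, had 0 UMIs in germ and feeder cells of both libraries.

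Cells were split by germ cell genes against fibroblast genes. A cell with more UMIs of Dazl and Ddx4, RNA-binding and helicase genes of germ cells, than of Col1a1 and Fn1, which encode fibroblast matrix proteins, went to the germ class, and the reverse to the feeder class, with at least 3 such UMIs. A UMI is the tag of 1 captured mRNA molecule. The germ class held 721 control and 750 Chd4 siRNA cells with 11563924 and 12172794 UMIs, and the feeder class 77 and 86 cells with 3160582 and 3592575 UMIs. Median UMIs per cell were 15324 and 15624.5 in germ cells and 38674 and 42147 in feeder cells. The 18 and 22 other cells stayed unassigned. The 12 germ cell markers summed to 2539 and 2729 CPM in the germ class against 107.6 and 91.9 CPM in the feeder class. The fibroblast markers summed to 106 and 110 CPM against 4234 and 4506 CPM. These sums include Dazl, Ddx4, Col1a1 and Fn1, so the rule itself set part of the gap. Without Dazl and Ddx4, 9 germ markers summed in feeder cells to 0.05 and 0.04 of their germ level. Without Col1a1 and Fn1, 11 fibroblast markers summed in germ cells to 0.018 and 0.017 of their feeder level. The fibroblast gene Lum was at 0 in the feeder class of both libraries. Sertoli cell markers summed to 22.8 and 23.9 CPM in the germ class and to 263 and 285 CPM in the feeder class. Chd4 had 537 CPM in control germ cells and 254 CPM after Chd4 siRNA, a log2 ratio of -1.08 (-1.15 to -1.02). In feeder cells Chd4 went from 154 to 51.8 CPM, a log2 ratio of -1.58 (-1.83 to -1.33), so Chd4 was lower in both classes. The libraries shared 1 cell barcode.

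**Figure D1:**
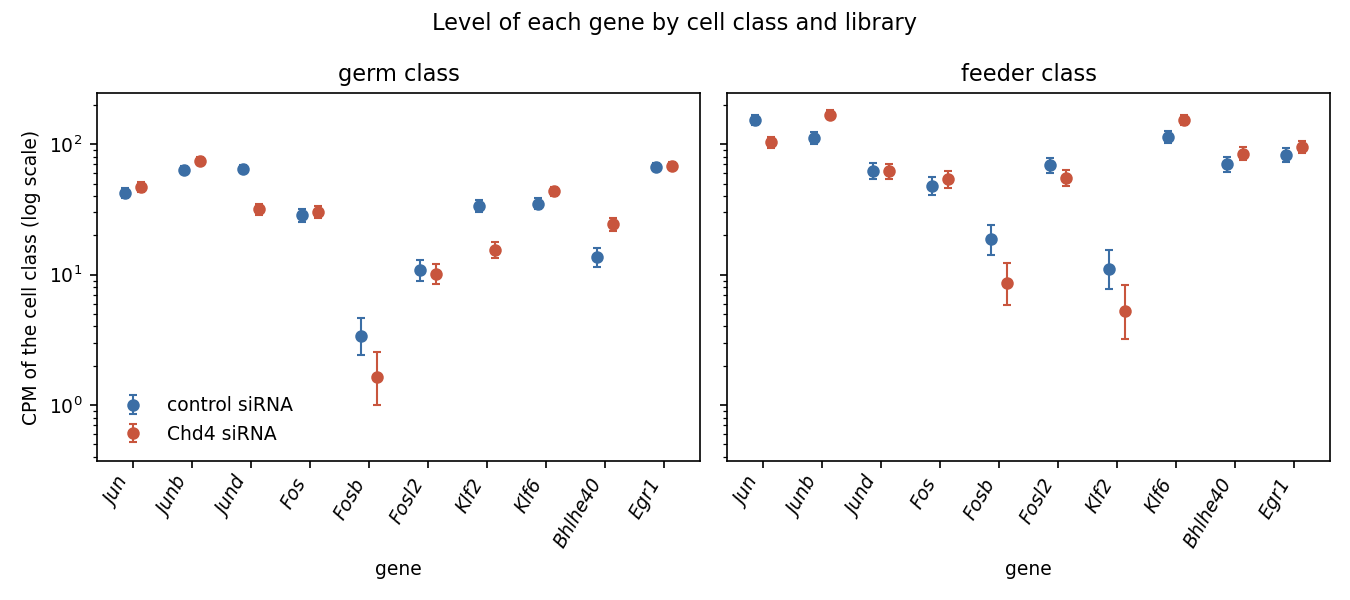
Level of each gene in UMIs per 1000000 UMIs of its cell class (CPM, log scale), for control siRNA (blue) and Chd4 siRNA (red), germ class on the left and feeder class on the right. Points are sums over the cells of 1 library and bars are exact Poisson 95% intervals. In germ cells the blue and red intervals stand apart for Junb, Jund, Klf2, Klf6 and Bhlhe40, and Fosb is the lowest gene.

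Levels are UMIs per 1000000 UMIs of named genes in a class (CPM). The v2 chemistry tags the 3′ end of each molecule once, so values are not divided by gene length. In control germ cells Egr1 (66.8 CPM), Jund (64.7 CPM) and Junb (63.7 CPM) were the most abundant of the 10, with overlapping intervals. Jun followed at 42.4 CPM, then Klf6 (35.1), Klf2 (33.6) and Fos (28.5), and of these the intervals of Jun and Klf6 meet at 38.7 CPM without overlapping, while the others overlap with their neighbours in this order. Bhlhe40 (13.6 CPM) and Fosl2 (10.8 CPM) overlap as well, and Fosb at 3.37 CPM (2.40 to 4.61) was below all others. After Chd4 siRNA the order in germ cells was Junb at 74.3 CPM, Egr1 at 68.2 CPM, Jun at 47.1 CPM and Klf6 at 43.5 CPM. Jund, at 31.7 CPM, then lay beside Fos at 30.1 CPM, and Bhlhe40 at 24.4 CPM was above Klf2 at 15.5 CPM, the reverse of the control library.

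Among the JUN genes, whose proteins can each form AP-1, the 3 members did not move alike in germ cells. Jund counted 748 UMIs with control siRNA and 386 with Chd4 siRNA, a log2 ratio of -1.03 (-1.21 to -0.85). This is about the same ratio as that of Chd4 itself. Jun, the founding AP-1 subunit, counted 490 and 573 UMIs, a log2 ratio of 0.15 (-0.02 to 0.33). Junb, which can replace Jun and damp its activity, counted 737 and 905 UMIs, 0.22 on the log2 scale (0.08 to 0.36). In control germ cells Jund made up the largest JUN signal together with Junb. In the other library it was the smallest of the 3.

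Among the FOS genes, which need a JUN partner to bind DNA, Fos counted 330 and 367 UMIs in germ cells, a log2 ratio of 0.08 (-0.14 to 0.30). Fosl2, encoding the steadier FRA-2 protein, counted 125 and 124 UMIs and had -0.09 (-0.46 to 0.28). Fosb was sparse, with 39 and 20 UMIs and a log2 ratio of -1.04 (-1.89 to -0.22). It is the member closest to Jund and Klf2 in ratio, but its interval is wide, and it is below the 200 UMIs asked of a gene for the counts that follow.

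Klf2, a factor held on by the MEF2 proteins and known from quiescent lymphocytes and endothelium, counted 389 and 189 germ cell UMIs, a log2 ratio of -1.12 (-1.37 to -0.86). Its relative Klf6, which many cells make after injury or stress, counted 406 and 530 UMIs and had 0.31 (0.12 to 0.50). The levels of the pair were alike in the control library and differed after Chd4 siRNA. Bhlhe40 counted 157 and 297 UMIs, a log2 ratio of 0.85 (0.56 to 1.13). Its close relative Bhlhe41, also a clock repressor, lay on the other side with 672 and 566 UMIs and -0.32 (-0.49 to -0.16). Egr1 counted 773 and 830 UMIs, 0.03 on the log2 scale (-0.11 to 0.17).

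**Figure D2:**
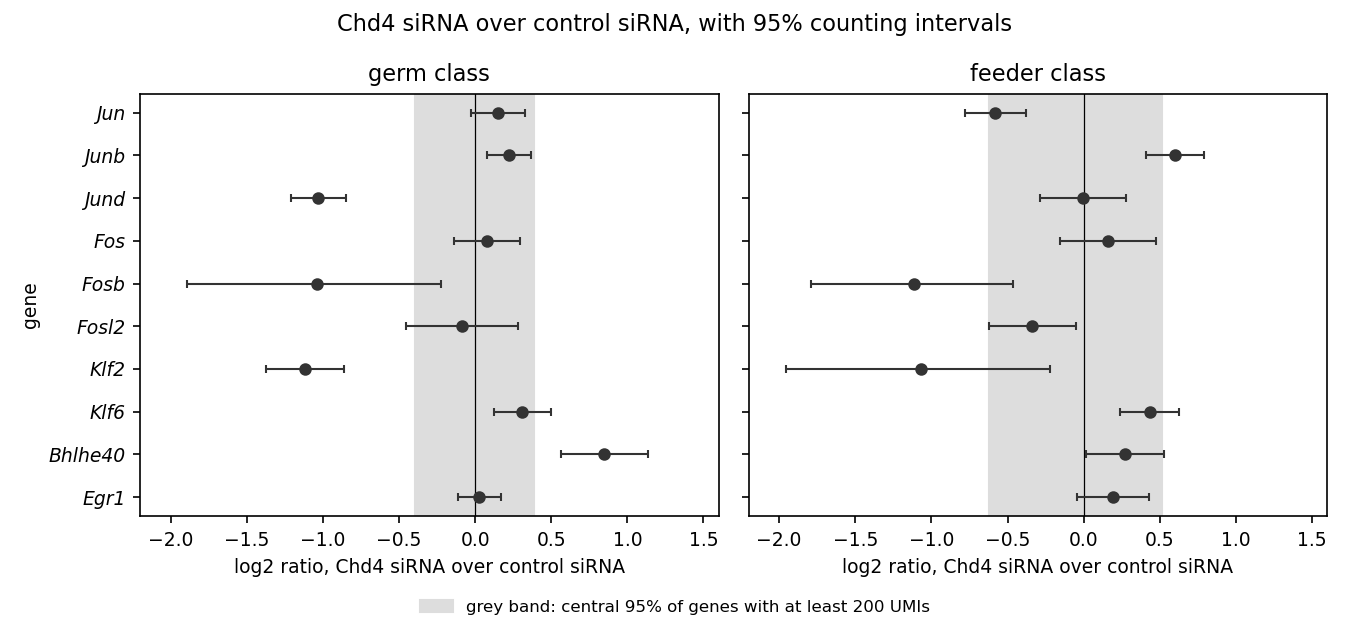
Log2 ratio of Chd4 siRNA over control siRNA for each gene, germ class on the left and feeder class on the right, with exact binomial 95% intervals for counting error. The grey band holds the central 95% of genes with at least 200 UMIs (-0.39 to 0.38 in germ cells, -0.62 to 0.52 in feeder cells). Jund, Klf2 and Bhlhe40 lie outside it in germ cells with their whole intervals, and Jund lies at 0 in feeder cells.

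Over the 8238 genes with at least 200 UMIs in germ cells of both libraries together, the median log2 ratio was 0.05 and 97.6% of genes lay within 0.5 of 0. Of the 9 members among them, Jund and Klf2 were lower by 0.5 or more, where 1.43% of all such genes were. Bhlhe40 alone was higher by 0.5 or more, where 0.923% of all such genes were. These counts come from the contrast that chose the genes, and nothing is read from them. At a limit of 0.25 the counts were 2 higher (9.03% of all genes) and 2 lower (6.26%), and at a limit of 1 they were 0 higher (0.0243%) and 2 lower (0.17%). The member nearest to the 0.5 limit from outside was Klf6 at 0.31, and the nearest inside was Bhlhe40 at 0.85. With at least 20 UMIs all 10 members are measured, Fosb joins the lower ones, and of all genes 5.41% are lower and 5.42% higher.

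The choice rested on germ cell ratios, but it was made with earlier results of these data known. The feeder cells give a view of the same genes in another cell class of the same libraries, as a description. Jund counted 197 UMIs in control and 223 in Chd4 siRNA feeder cells, 62.3 and 62.1 CPM, for a log2 ratio of -0.01 (-0.29 to 0.28). The germ ratio of Jund minus the feeder ratio was -1.02 (-1.35 to -0.69). In feeder cells assigned by the whole marker lists the Jund ratio was 0.26 (-0.01 to 0.53), and in cells thinned to equal depth -0.26, so its sign there is not fixed. Klf2 was sparse in feeder cells with 35 and 19 UMIs. Its log2 ratio of -1.07 (-1.95 to -0.22) lay close to that of germ cells, and the difference between the classes was -0.05 (-0.89 to 0.79). Bhlhe40 counted 222 and 304 feeder UMIs, 0.27 (0.01 to 0.52). Its germ ratio exceeded the feeder ratio by 0.58 (0.20 to 0.95). The differences between the classes for Jund, Klf2 and Bhlhe40 hold the germ ratios that chose these genes, so nothing is read from them.

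Jun and Junb parted in feeder cells more than in germ cells. Jun counted 489 UMIs in control and 372 in Chd4 siRNA feeder cells, 155 and 104 CPM, a log2 ratio of -0.58 (-0.78 to -0.38). Junb counted 352 and 606 UMIs, 111 and 169 CPM, and 0.60 (0.41 to 0.79). A few cells held much of this signal. A single control cell held 89 Jun UMIs, 18.2% of the class, and a single control cell held 85 Junb UMIs, 24.1%. Without the cell with most UMIs in each library the ratios were -0.52 (-0.74 to -0.31) for Jun and 0.78 (0.57 to 1.002) for Junb. Klf6 counted 359 and 551 UMIs and had 0.43 (0.24 to 0.63), of which 106 UMIs came from 1 Chd4 siRNA cell. Its ratio was 0.23 (0.02 to 0.44) without the leading cell of each library.

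The remaining feeder values were smaller or rest on few UMIs. Fos counted 152 and 193 UMIs (0.16, -0.15 to 0.48) and Egr1 263 and 341 UMIs (0.19, -0.05 to 0.43). Fosl2 counted 219 and 197 UMIs (-0.34, -0.62 to -0.05). Fosb counted 59 and 31 UMIs, a log2 ratio of -1.11 (-1.79 to -0.46), which became -0.27 in thinned cells. Of the 8 members with at least 200 feeder UMIs, Junb was higher by 0.5 or more, as were 2.91% of 4228 such genes, and Jun was lower by 0.5 or more, as were 4.52%. One of 8 against shares of that size, with 1 library a condition, is a description of these libraries.

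Germ and feeder cells of the same library differed in the level of most members. In the control library Fosl2 was 6.41-fold higher in feeder cells (69.3 against 10.8 CPM), Fosb 5.54-fold, Bhlhe40 5.17-fold, Jun 3.65-fold and Klf6 3.24-fold. Junb (log2 germ over feeder -0.81), Fos (-0.75) and Egr1 (-0.32) were nearer to level. Klf2 was the one member clearly higher in germ cells, 33.6 against 11.1 CPM, a log2 ratio of 1.603 (1.10 to 2.15), and 1.55 (0.87 to 2.32) in the Chd4 siRNA library. Of 7220 genes with at least 200 UMIs in the control library, 33.0% were higher in germ cells by a log2 ratio of 1 or more and 15.9% lower. Of the 9 members with that many UMIs, 4 were lower by that much (Jun, Fosl2, Klf6 and Bhlhe40) and Klf2 was higher. Fosb, with fewer UMIs, had -2.47. In the Chd4 siRNA library, where 35.4% of genes were higher and 16.4% lower, Junb joined the lower members at -1.18 and Klf2 was again the one above.

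Jund stood at 64.7 CPM in germ and 62.3 CPM in feeder cells of the control library, a log2 ratio of 0.05 (-0.17 to 0.29). In cells thinned to the same depth this ratio was -0.51 (-0.90 to -0.09), and as a mean of the CPM of single cells it was -0.10. The cause of the difference was not tested. In the Chd4 siRNA library Jund was lower in germ than in feeder cells, 31.7 against 62.1 CPM, and the log2 ratio of -0.97 (-1.21 to -0.72) was -1.25 in thinned cells. Droplets also hold RNA from broken cells. The fibroblast markers not used to split the cells had a median germ level of 0.01 of their feeder level in both libraries, with Col5a1 highest at 0.20 and 0.28. Germ markers in feeder cells were at a median of 0.05 and 0.03 of their germ level, with Etv5 highest at 0.17 and 0.14. In the control library the germ levels of Fosl2, Fosb and Bhlhe40 were 0.16, 0.18 and 0.19 of their feeder levels, above the marker median and below Col5a1. In the Chd4 siRNA library they were 0.19, 0.19 and 0.29, the last of these above Col5a1. Whether RNA from feeder cells adds to those 3 germ levels was not tested. The Klf2 level of feeder cells was 0.33 of the germ level in the control library, above every germ marker.

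Shares of positive cells were compared in cells thinned to 9000 UMIs each, which left 665 control and 694 Chd4 siRNA germ cells and set aside 56 shallower cells in each library. Jund was found in 37.3% of control and 21.04% of Chd4 siRNA germ cells, a difference of -16.3 points (-20.97 to -11.5). Klf2 was found in 22.4% of control and 10.5% of Chd4 siRNA germ cells, which is -11.9 points (-15.8 to -7.98). Cells with at least 2 Klf2 UMIs made up 6.77% and 1.44%, so the higher counts thinned out with the lower ones. Bhlhe40 was found in 9.77% and 16.9%, 7.08 points higher (3.48 to 10.7), and with at least 2 UMIs in 0.60% and 3.31%. Klf6 was found in 22.4% and 27.8%, 5.404 points higher (0.79 to 9.98). Jun (25.3% and 29.0%), Junb (35.2% and 38.5%), Fos (20% and 19.7%), Fosl2 (9.47% and 9.65%) and Egr1 (38.8% and 40.2%) had intervals of the difference that include 0. Fosb was found in 3.16% and 1.01%. The germ cell shares of Jund, Klf2 and Bhlhe40 come from the counts that chose these genes and are a description only.

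In unthinned germ cells Jund was found in 50.9% and 32.8%, Klf2 in 30.2% and 18.7% and Bhlhe40 in 16.2% and 24.4%. The thinned share of feeder cells, at the same depth, was 10.7% and 4.76% for Klf2, 48.0% and 40.5% for Jund and 48.0% and 47.6% for Bhlhe40. The Chd4 siRNA germ share of Klf2 (10.5%) is thus at the level of control feeder cells. No cell type in the culture is known to lack Jund or Klf2, so these shares have no true background. The variance over the mean of thinned counts, which is 1 where UMIs fall on cells at random, was 2.57 and 2.16 for Fos and 2.20 and 2.79 for Junb in germ cells. It was 1.47 and 1.34 for Jund and 1.12 and 1.25 for Bhlhe40. By this measure Fos and Junb had the highest values of the 10 genes in both libraries.

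**Figure D3:**
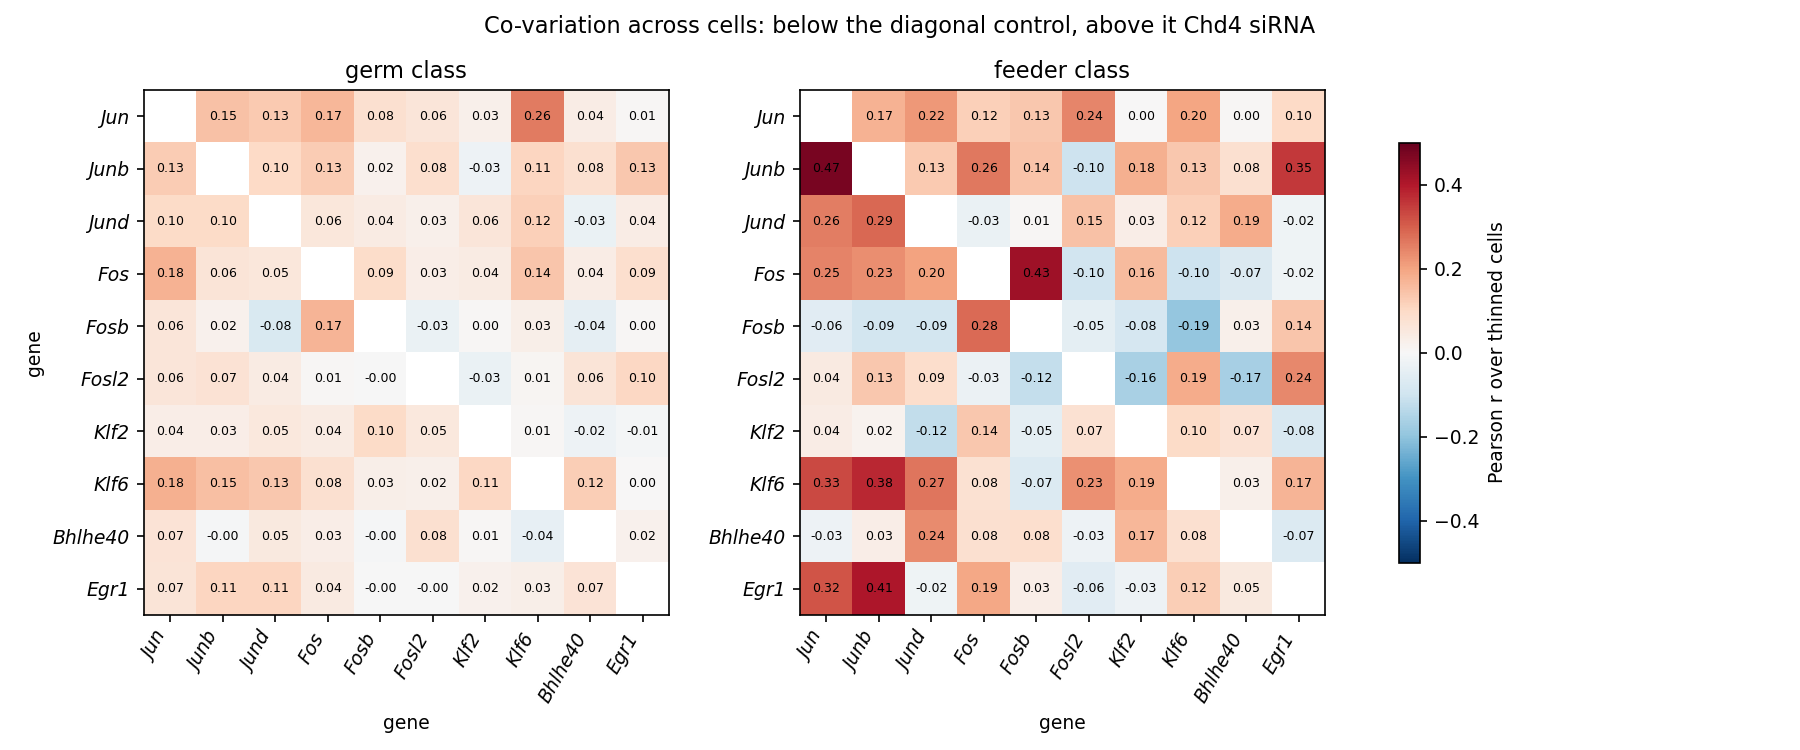
Pearson correlation of log(1 + count) between genes over thinned cells, germ class on the left and feeder class on the right. Values below the diagonal are from the control library and values above it from the Chd4 siRNA library. In germ cells Jun with Klf6 is the pair with the highest mean, and most squares are near 0.

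Within a library, members varied together only weakly from cell to cell. Over the 45 pairs in germ cells the mean of the correlations of both libraries had a median of 0.05 and ran from -0.02 to 0.22. Only Jun with Klf6 passed 0.2 (0.18 in control and 0.26 in Chd4 siRNA cells). Klf6 was found in 32.1% of control cells with Jun and 19.1% of those without it. Jun with Fos followed (0.18 and 0.17), the classic AP-1 pair. The 24 pairs with Jund, Klf2 or Bhlhe40 had a median of 0.04 and the 21 others 0.06. All cells share library, depth and free RNA, and in counts this sparse a weak correlation is no finding. Of Fos, Jun, Junb and Egr1, all 4 were found together in 11 of 665 (1.65%) control and 14 of 694 (2.02%) Chd4 siRNA germ cells, and none of them in 182 (27.4%) and 166 (23.9%). In feeder cells the highest pair was Junb with Egr1, at 0.41 and 0.35 over 75 and 84 cells.

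The genes most like each member over germ cells were looked up among 8905 genes. Dusp1, a phosphatase that switches off MAP kinases, headed the list for Jun (mean r 0.25) and Fos (0.20) and was also among the first 3 for Klf6 (0.21). Ddit3, a factor of the stress response, was second for Jun and Klf6 (0.22 for both). Fos was next most like Jun (0.17) and Bud31 (0.14). Junb was most like Ier2, an immediate early gene (0.17), then Crlf2 and Btg1. Egr1 was most like Rhob, Sdc4 and Asb9 (0.12 to 0.14). Jund was most like Dusp16 (0.17, from 0.23 in control and 0.11 in Chd4 siRNA cells), Dusp8 (0.15) and Syt11. Dusp16 and Dusp8 encode phosphatases that act on the kinase JNK. Klf2 was most like Hmgn5, Cox7a1 and S100a10 (0.13 to 0.16), Bhlhe40 like Id1, Lgals1 and Atp6v0b (0.12 to 0.14) and Fosl2 like Otud3, Ctsl and Lta4h (0.10 to 0.12). Fosb was in too few cells to compare. Each list gives the highest of 8905 values, and no level expected by chance was set beside them, so no link between genes is read from it.

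**Figure D4:**
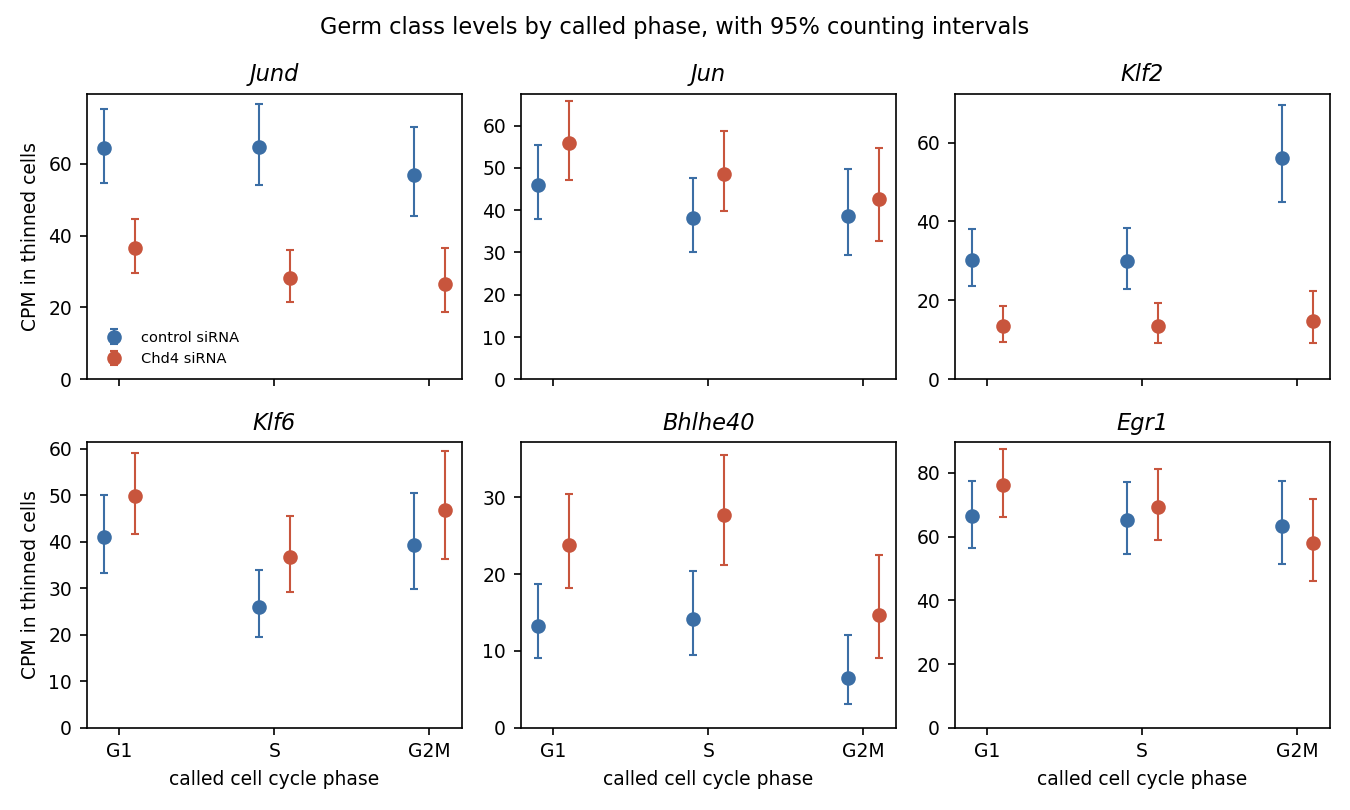
Level in thinned germ cells (CPM) of 6 genes by called cell cycle phase, for control siRNA (blue) and Chd4 siRNA (red), with exact Poisson 95% intervals. Klf2 in the control library is highest in G2M at 56.2 CPM, and in the Chd4 siRNA library it lies between 13.4 and 14.7 CPM in every phase.

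Germ cells were given a phase from lists of S and G2/M genes, and both libraries had cells in each (268, 227 and 170 control cells in G1, S and G2M, and 290, 245 and 159 Chd4 siRNA cells). In the control library Klf2 was at 30.3 CPM in G1 (23.7 to 38.1), 29.9 in S and 56.2 in G2M (44.96 to 69.4). After Chd4 siRNA it was at 13.4, 13.6 and 14.7 CPM. Its log2 ratio was -1.17 in G1, -1.13 in S and -1.94 (-2.70 to -1.24) in G2M. Jund was level over the phases in control cells (64.3, 64.6 and 56.9 CPM) and had ratios of -0.82, -1.20 and -1.10. Bhlhe40 was lowest in G2M in both libraries, at 6.54 CPM in control and 14.7 CPM in Chd4 siRNA cells, against 13.3 and 23.8 CPM in G1, with overlapping intervals. Its ratios were 0.84, 0.96 and 1.17, the last on 10 and 21 UMIs. Klf6 in control cells was at 25.9 CPM in S (19.4 to 33.9) and 41.0 CPM in G1 (33.4 to 49.97). The direction of the ratio was the same in all 3 phases for Jund, Klf2, Bhlhe40, Klf6 and Jun. For Jund, Klf2 and Bhlhe40 the phases divide the counts that chose them, so nothing is read from this. For Klf6 and Jun the intervals of all 3 phases include 0. Junb had 0.33 in G1 and -0.0085 in G2M. Free RNA enters phase calls too, and its part in them was not tested.

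**Figure D5:**
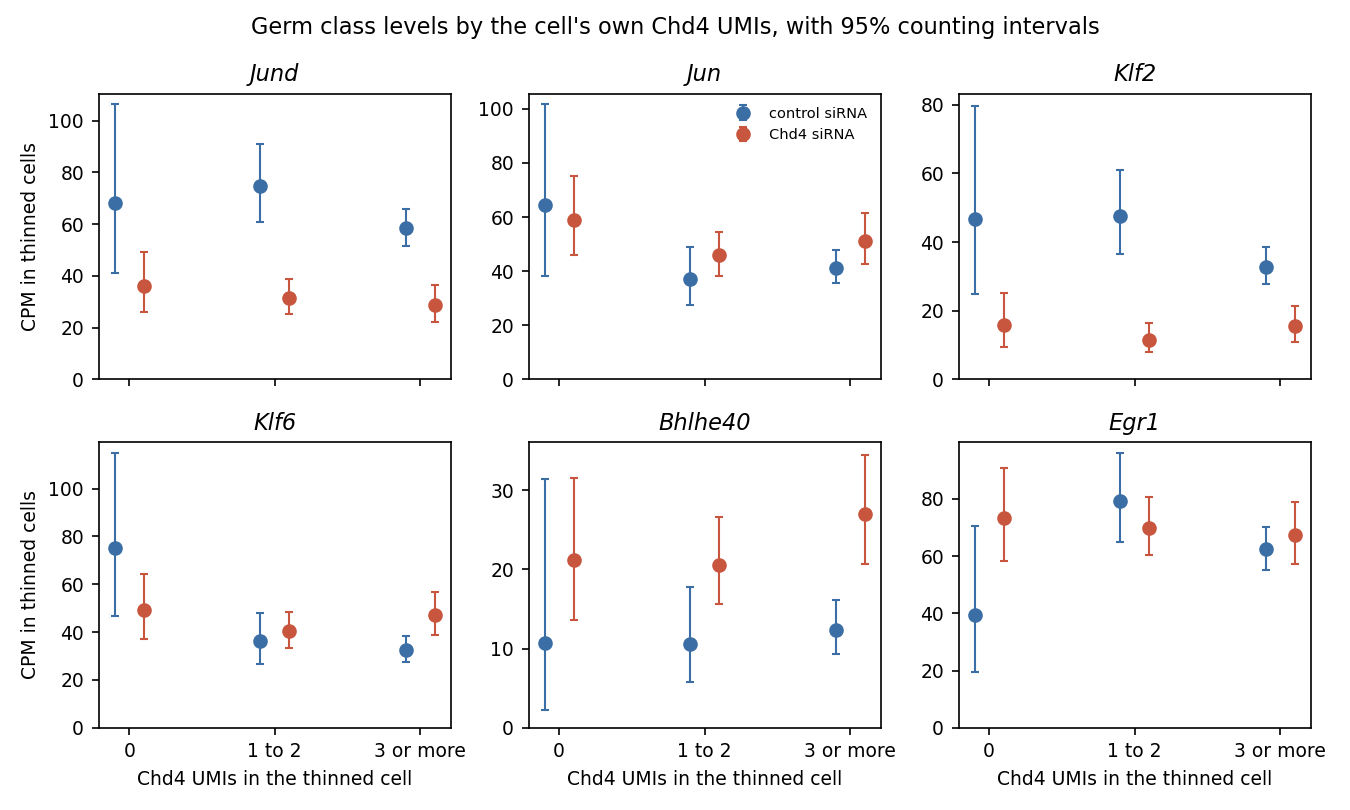
Level in thinned germ cells (CPM) of 6 genes by the number of Chd4 UMIs left in the same cell, for control siRNA (blue) and Chd4 siRNA (red), with exact Poisson 95% intervals. Within each library the Jund intervals of the bins overlap, and in each bin the Chd4 siRNA library is lower.

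Cells were also set out by their own Chd4 count. Among control germ cells Jund was at 68.1 CPM in the 31 cells with no Chd4 UMI, 74.8 CPM in the 147 with 1 to 2 and 58.4 CPM in the 487 with 3 or more. In the Chd4 siRNA library the same bins, of 126, 308 and 260 cells, had 36.2, 31.4 and 28.6 CPM. Klf2 was at 46.6, 47.6 and 32.9 CPM in control cells and 15.9, 11.5 and 15.4 CPM in Chd4 siRNA cells. Bhlhe40 was at 10.8, 10.6 and 12.3 CPM in control cells and 21.2, 20.6 and 26.9 CPM in the others. For these 3 genes the Chd4 siRNA library lay on the same side of the control library in every bin. The bins divide the same counts that chose these genes, so the shared side is a description only. The intervals of both libraries overlapped for all 3 genes in the cells with no Chd4 UMI, and for Bhlhe40 also in the cells with 1 to 2. Chd4 counts of single thinned cells are few, and a cell with 0 UMIs may still hold Chd4 mRNA.

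The relatives of the members give the wider families. Of the other AP-1 and bZIP partner genes 9 had at least 200 germ UMIs, with a median log2 ratio of 0.21 against 0.05 over all genes and none past 0.5 in either direction. Crem (0.32) and Batf3 (0.31), which encode bZIP factors, Mafg (0.28), a small MAF partner, and Atf4 (0.21), the factor of the integrated stress response, were among them. Of the other KLF and SP genes 13 were measured (median 0.04, none past 0.5). Klf16 was at -0.46 (217 and 166 UMIs), Sp5 at 0.38, Klf11 at 0.32 and Klf7 at 0.20. Among 15 clock and BHLHE genes (median -0.01) none passed 0.5. The clock kinases Csnk1e (0.36) and Csnk1d (0.28) were higher, and the clock repressor Nr1d1 (-0.29) was lower, on the side of Bhlhe41. Of the EGR relatives and their NAB corepressors 4 were measured (median 0.08), with Nab1 at 0.36. At a minimum of 20 UMIs 5.42% of all genes were higher by 0.5 or more and 5.41% lower. Of 11 AP-1 and bZIP partners measured at that minimum 2 were higher and 0 lower. Of 17 KLF and SP genes 1 was higher and 0 lower, and of 20 clock and BHLHE genes 1 was higher and 1 lower.

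Of the immediate early genes that are not members 24 were measured, with a median of 0.09. Of these 2 were higher by 0.5 or more, where 0.923% of all genes were, and 0 were lower by as much. The intervals of 8 lay above 0 and that of 1 below. The share of all genes with such intervals was not counted, so nothing is read from these counts. With at least 20 UMIs 32 were measured, 3 of them higher by 0.5 or more (5.42% of all genes) and 2 lower (5.41%). Sgk1, a kinase gene induced by serum and steroids, had 0.78 (103 and 186 UMIs). Gadd45g, a growth arrest gene that the naming rule does not reach and that was named after its value was seen, had 0.55 (117 and 180 UMIs). Rhob had 0.47, Socs3, a feedback inhibitor of cytokine signalling, 0.45 and Dusp1 0.43. Among 29 kinases and factors upstream of AP-1 and Klf2 the median was 0.07 and none passed 0.5, with Mapk12 at 0.42, Map3k1 at 0.35 and Hras at -0.32. Detaching cells induces heat shock and early genes, so 9 heat shock genes with at least 200 UMIs were examined in germ cells. Their median was 0.11 and none passed 0.5, with Hspa8 at 0.30 (1293 and 1588 CPM), Hspd1 at 0.21, Hsp90ab1 at 0.15 and Hsp90aa1 at 0.11. With at least 20 UMIs 12 heat shock genes were measured, 2 of them higher by 0.5 or more and 1 lower. The part of heat shock genes in the ratios of the members was not tested.

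Genes next to Jund, Klf2 and Bhlhe40 were examined for ratios like theirs. Within 1 Mb of Jund 55 neighbours had at least 200 UMIs, with a median log2 ratio of 0.04, and Ssbp4 was at 0.40. Within 1 Mb of Klf2 the 26 neighbours had a median of 0.04, with 1 lower by 0.5 or more, Gm10282 at -0.83, and Fam32a was at 0.24. Jund and Klf2 lie 1620084 bases apart on chromosome 8, and the 32 measured genes between them had a median of 0.02. Only 4 genes near Bhlhe40 were measured (median 0.12), with Arl8b at 0.18. Jund is 1 of the coding genes with a single exon. Of 147 coding genes with 1 exon in germ cells 20 (13.6%) were lower by 0.5 or more, against 1.18% of all 8067 coding genes, while their median was 0.00. Jun and Junb, also with 1 exon, had positive ratios. Of the 2211 coding genes under 2000 bases 2.31% were lower, and of the 156 of them with at least 60% GC 4.49%. In feeder cells 12.9% of the 1-exon genes were lower, against 4.22% of all coding genes. Whether gene structure bears on the Jund ratio was not tested.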

How the data were processed

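The values the authors deposited are whole UMI counts for each gene in each cell. The submitters' processing notes name Cell Ranger 2.1.0, Seurat and mm10, without their roles, and cell calling was not given in the sources used here. Rows with no gene name (1105 of 27998; 12.1% and 12.6% of UMIs) and the incomplete last cell of each matrix were left out. Cells with at least 1000 UMIs were kept (816 and 858, with 14826257 and 15919962 UMIs). Scrublet called 14 and 6 cells doublets, and these were kept.

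UMIs were summed per class and library and divided by the class total. Ratios have exact conditional binomial 95% intervals, sums exact Poisson and shares Clopper-Pearson intervals, all for counting error only. Thinning, phases and correlations used scanpy 1.11.5, and the scalings edgeR 4.0.16 and DESeq2 1.42.0, without a test. Counting and intervals were tested on simulated data. The 10 members, the gene lists and the choice of tests were made with earlier results of these data known. Of each list up to 4 genes with at least 200 germ UMIs were named, those with the interval bound nearest 0 farthest from 0. For members in at least 5% of thinned germ cells the 3 genes of highest mean correlation were named. Up to 2 neighbours of Jund, Klf2 and Bhlhe40 were named by the bound. Some genes that these rules name are not reported here.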

Additional observations from a re-analysis of the deposited data

Results flagged for a closer look

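Jun had log2 ratios of Chd4 siRNA over control of opposite sign in the 2 cell classes, 0.15 in germ cells and -0.58 in feeder cells, a difference of 0.73 (0.47 to 0.99 by counting error). The germ interval of -0.02 to 0.33 includes 0. With 1 library per condition the difference was not tested across samples. The 4 control feeder cells with most Jun UMIs held 41.3% of them, a spread between cells that the counting interval does not cover. The share of thinned feeder cells with Jun was -11.3 points apart (-25.9 to 4.07), an interval that includes 0.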

How the results depend on the processing

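The ratio of each member in germ cells was recomputed with other class rules, without doublets, with a higher UMI minimum, in thinned cells, as a mean over cells, with TMM and DESeq2 scaling, over totals without ribosomal protein genes, by phase, and without the cell with most UMIs of the gene (this last chosen after seeing the data). Over these the germ ratio of Jund ran from -1.20 to -0.82, of Klf2 from -1.94 to -1.10 and of Bhlhe40 from 0.80 to 1.17. Of 127 such values 10 lay outside the counting interval of the value reported, and 1 more changed sign for a gene whose interval leaves out 0 (Junb). Fos (-0.24 to 0.22), Fosl2 (-0.35 to 0.68) and Egr1 (-0.13 to 0.20), whose intervals include 0, took either sign, Egr1 also under TMM and DESeq2 scaling. Among the values that moved or changed sign were those of thinned cells for Klf2 (-1.42), of G1 cells for Jund (-0.82), and of G2M cells for Klf2 (-1.94), Bhlhe40 (1.17) and Junb (-0.0085). The number of members higher past the limit in germ cells was 2 at log2 0.25 and 0 at log2 1. Other scalings moved all germ ratios by -0.05 or -0.03 and feeder ratios by 0.04 or 0.06. Of 100 feeder alternatives 94 moved by less than the counting interval. The Jun feeder ratio ran from -0.94 to -0.45. All 79 shares that moved did so with depth or the UMI minimum. No paired analysis was possible because each condition is 1 library, and for the same reason no replicate could be left out. Depth limits Fosb in both classes and Klf2 in feeder cells.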
